A study of Mus musculus with 4 samples.

Results

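A set of 9 genes best known from the retina, muscle, the immune system, the pancreas and the liver were followed on arrays of a mouse neuroblastoma line. They were Sag, Cdhr1, Mybpc2, Fcer1g, Tyrobp, Lyz2, Zap70, Cela1 and Apoa1. They are 9 of 18193 genes measured, and all of their probe sets were taken whose array annotation gave 1 symbol, 14 of 45037 probe sets in all. Each of the 9 genes had at least 1 such probe set, 7 had 1 alone, and 12 of the 14 probe sets passed the filter on dim signals. The genes were chosen by their signal, the agreement of their probe sets and their difference between the groups, so their own values below are a description and carry no test.

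Cytoplasmic RNA came from Neuro2A cells depleted of endogenous 4.5SH by antisense oligonucleotides (2 arrays of the 4.5SH knockdown) and from control cells (2 arrays). Both groups were transfected by lipofection at 30 nM, and what the control cells received is left unnamed by the labels. 4.5SH is a small noncoding RNA of rodents, and the stated aim was to find its targets among genes with antisense B1 elements, a family of short interspersed repeats. The replicates are called biological, but nothing says that they came from separate transfections. The p-values therefore cover only a spread among 4 arrays, which may be technical. For each gene that spread was also drawn towards the spread of other genes of like brightness, on which the p-values largely rest. Neuro2A is a single tumour line, and no animal tissue was sampled.

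Each value is a MAS5 signal, a linear brightness computed from the set of probes that stands for a transcript. The median signal of an array lay between 17.1 and 18.3, and the trimmed mean was 128 and 132 in the knockdown, against 149 and 143 in the control. The file holds no detection call, so whether a dim probe set stood above its own background was not analysed here. Precision is limited by the number of arrays. Differences are means of log2(signal + 16), knockdown minus control, on which a dim gene's change is understated. Of 24 measured neuroblastoma and neural markers, 19 passed the filter and 16 had a mean signal over 100. The intermediate filament gene Prph, of peripheral neurons, read 6840 and 6853 in the knockdown, against 6456 and 6376 in the control. The growth-associated gene Stmn2 read 3571 and 3604 in the knockdown, against 4038 and 4031 in the control. Bright neural markers were thus present in both groups, although Th and Dcx, singled out after their values were seen, stayed at or below 24.0 and 14.0 on each array.

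In their home tissues these genes serve unrelated tasks. Photoreceptors detect light through rhodopsin and shut the signal off with arrestin. Striated muscle holds its thick filaments in register with myosin-binding proteins. Immune receptors without a signalling tail of their own pair with small adaptors that carry an ITAM, a tyrosine motif which recruits the kinases Syk and Zap70. Acinar cells of the pancreas secrete digestive proteases, and the liver secretes the protein core of high-density lipoprotein. In bulk RNA of a culture, fewer cells of a type and less RNA per cell cannot be told apart.

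**Figure D1:**
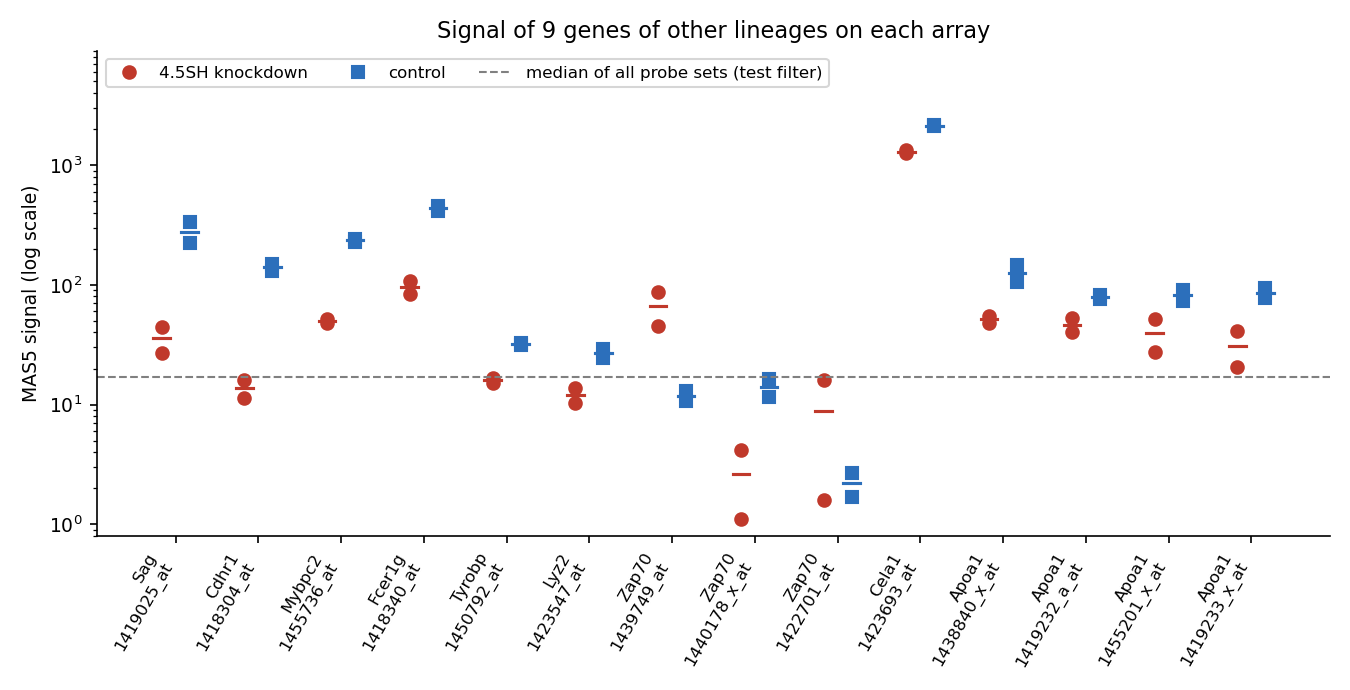
MAS5 signal (log scale) of the 14 probe sets on each array, with knockdown arrays as red circles left of control arrays as blue squares, bars for group means, and a dashed line at the filter's signal of 16.9. Knockdown arrays lie below control arrays at 12 probe sets, above them at Zap70 1439749_at, and on both sides of them at Zap70 1422701_at.

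Sag encodes the rod arrestin, also called S-antigen, which binds phosphorylated rhodopsin and ends its signal. The gene lies at chr1:87798143-87845158 of GRCm38.p6. The probe set 1419025_at read 27.2 and 44.4 in the knockdown, against 331.4 and 224.3 in the control. Both knockdown arrays lay far below both control arrays, and the control arrays differed from each other by 107.1. The means were 35.8 ± 12.2 in the knockdown, against 278 ± 75.7 in the control (SD, n = 2), or 12.9% of the control mean. On the log2 scale the difference was -2.50, and only 0.0222% of the tested probe sets had a lower one.

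Cdhr1 encodes a photoreceptor cadherin of the outer segment base, where new membrane discs form, and lies at chr14:37077849-37098347. Its probe set 1418304_at read 11.4 and 16.1 in the knockdown, against 150.2 and 130.3 in the control. The groups did not overlap, and in the knockdown the signal was under the filter's value of 16.9. The probe set thus passed only through the control arrays. The log2 difference was -2.39. The size depended on the pseudocount, being -3.27 with a pseudocount of 1 and -1.39 with one of 64.

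The sequences before the start sites of both photoreceptor genes are shown because they had the lowest log2 differences of the 9 genes, at -2.50 and -2.39, and are expressed in the same cell type. They are the 250 bases before an annotated start in RefSeq's GRCm38.p6 table, which held 10 windows for 8 of the 9 genes, at chr1:87803430-87803679 on the plus strand for Sag and at chr14:37098348-37098597 on the minus strand for Cdhr1. The Sag window lies inside the span of the gene given above, so the start it precedes is not the outermost one. Capitals mark CANNTG, the E-box bound by basic helix-loop-helix factors, and, in Sag, a match to TAATCC, the core of sites for the photoreceptor factor Crx, on either strand.
Sag: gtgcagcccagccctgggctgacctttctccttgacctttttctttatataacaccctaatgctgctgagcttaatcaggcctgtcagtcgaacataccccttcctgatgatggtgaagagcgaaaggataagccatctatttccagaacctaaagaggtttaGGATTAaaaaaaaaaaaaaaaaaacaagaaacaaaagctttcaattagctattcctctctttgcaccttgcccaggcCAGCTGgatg
Cdhr1: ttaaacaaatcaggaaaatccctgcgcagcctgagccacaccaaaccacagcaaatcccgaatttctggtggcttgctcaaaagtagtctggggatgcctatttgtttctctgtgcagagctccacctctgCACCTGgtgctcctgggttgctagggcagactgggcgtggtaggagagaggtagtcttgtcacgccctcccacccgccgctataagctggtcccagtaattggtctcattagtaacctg
In Sag the TAATCC match, read on the other strand as GGATTA, began 87 bases before the start, and 6.25% of 32851 promoter windows of this length held such a match. The window of Cdhr1 held none. TATAAA stood once in Sag, read on the other strand as TTTATA, 207 bases before the start. An E-box stood in both, as in 66.2% of all windows. Matches did not overlap each other, and a match is a description of letters only.

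Among the other photoreceptor genes, 32 of 37 listed had a probe set and 13 passed the filter. Of these 13, limma called 4 lower and 1 higher, while 8 did not pass, with a median log2 difference of -0.03. Over all 11814 tested genes 45.1% were called, 35.2% lower and 9.84% higher, at an adjusted p below 0.05, with a median of -0.17, so the photoreceptor shares of 30.8% and 7.69% were near the background. The split over all genes moved with the scaling, to 22.7% lower and 17.7% higher with quantile scaling, and to 44.8% lower and 5.69% higher when the spike-ins set the scale. Guca1b, a calcium sensor that activates the guanylate cyclase of photoreceptors, fell by 1.31 ± 0.10 (limma SE; adjusted p = 2.41e-08), with signals of 190.8 and 210.3 in the knockdown, against 530.9 and 513.2 in the control. The gamma subunit of the rod phosphodiesterase, Pde6g, fell by 0.52 ± 0.12 (limma adjusted p = 0.00144), and its second tested probe set was at -0.32 without passing in the fit of all probe sets. Aipl1, a chaperone of that phosphodiesterase, was called higher at 0.67 ± 0.25 (limma adjusted p = 0.0413). That call was lost without any of 3 arrays, namely either knockdown array (adjusted p = 0.0866 and 0.179) or control replicate 1 (adjusted p = 0.378).

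The factor Crx, which drives photoreceptor genes, read 4.7 and 6.1 in the knockdown, against 7.6 and 16 in the control, and the rod calcium sensor Rcvrn read 10.0 and 0.9 in the knockdown, against 0.5 and 1.0 in the control. Both were singled out after their values were seen. Other genes of the list were bright and were not called. Gnat2 had means of 218 in the knockdown, against 190 in the control (limma adjusted p = 0.197). Guca1a had 189 in the knockdown, against 200 in the control (limma adjusted p = 0.618), and Rom1 133, against 148 (limma adjusted p = 0.396). The summed signal of the photoreceptor list, at the brightest probe set of each gene, was 1300 and 1252 in the knockdown, against 1717 and 1693 in the control. Bright genes weigh most in such a sum, and Guca1b carried most of the fall here. No listed gene was at 0 on any array. The part of photoreceptor-type cells in the difference of Sag and Cdhr1 was not tested.

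Mybpc2 encodes the fast skeletal muscle form of myosin-binding protein C, which ties the thick filament to its neighbours, and lies at chr7:44501699-44524715. The probe set 1455736_at read 51.7 and 47.6 in the knockdown, against 243.0 and 228.4 in the control. Arrays of a group agreed closely here, the larger gap within a group being 14.6, and the groups did not overlap. The log2 difference was -1.94. Its upstream window at chr7:44524670-44524919 on the minus strand is shown for the E-box, which muscle regulators such as MyoD bind, again in capitals.
Mybpc2: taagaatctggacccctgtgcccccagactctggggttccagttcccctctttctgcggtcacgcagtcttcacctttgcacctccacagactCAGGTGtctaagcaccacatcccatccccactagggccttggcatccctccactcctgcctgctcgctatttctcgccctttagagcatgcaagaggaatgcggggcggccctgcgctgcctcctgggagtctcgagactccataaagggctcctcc
It held 1 E-box, beginning 157 bases before the start. Part of this window lies inside the span of the gene, so the start it precedes is not the outermost one.

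The skeletal muscle list had the largest number of lower genes among the tissue lists. Of 38 genes with a probe set, 17 passed the filter, and 9 fell, 2 rose and 6 did not pass, with a median of -0.43. The lower share was 52.9%, against 35.2% of all tested genes. Actn2, the alpha-actinin of the muscle Z-disc, fell by 1.12 ± 0.09 (limma adjusted p = 1.17e-07), with signals of 231.7 and 257.1 in the knockdown, against 571.0 and 525.1 in the control. Myh3, the embryonic myosin heavy chain and the brightest of the list, was at -0.21 ± 0.08 (limma adjusted p = 0.0491), a call that was lost with quantile scaling (adjusted p = 0.840) and without knockdown replicate 1 (adjusted p = 0.483) or control replicate 2 (adjusted p = 0.0931). Mybph, a myosin-binding relative of Mybpc2, rose by 1.19 ± 0.27 (limma adjusted p = 0.00158), reading 35.1 and 26.5 in the knockdown, against 4.7 and 4.2 in the control. Its mean signal of 17.6 passed the filter only through the knockdown arrays. Mybpc1, the slow skeletal form of the protein, read at most 24.4 on any array and was below the filter, and Mybpc3, the cardiac form, was at 0.19 ± 0.25 (limma adjusted p = 0.579). The summed signal of the list was 2077 and 2156 in the knockdown, against 3169 and 3134 in the control, while the muscle master regulator Myod1, singled out after its value was seen, read 24.9 and 7.4 in the knockdown, against 9.6 and 13.3 in the control. The part of muscle-type cells was not tested.

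Fcer1g encodes the common gamma chain of Fc receptors, an adaptor with an ITAM that also serves the high-affinity IgE receptor of mast cells. It lies at chr1:171229572-171234349. The probe set 1418340_at read 108.0 and 84.3 in the knockdown, against 455.3 and 415.4 in the control. All control values were several times those of the knockdown, and the means were 96.2 ± 16.8 in the knockdown, against 435 ± 28.2 in the control (SD, n = 2). The log2 difference was -2.02. Its upstream window at chr1:171234350-171234599 on the minus strand is shown because this was the brightest of the 4 probe sets with the lowest differences, and capitals mark its only E-box.
Fcer1g: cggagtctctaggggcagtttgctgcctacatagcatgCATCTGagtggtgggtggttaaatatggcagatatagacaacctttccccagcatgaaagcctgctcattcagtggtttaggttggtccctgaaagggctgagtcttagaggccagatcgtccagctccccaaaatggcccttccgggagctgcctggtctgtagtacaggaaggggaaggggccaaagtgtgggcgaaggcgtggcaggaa
A match to GAGGAA, the core of sites for the myeloid ETS factor PU.1, stood in neither orientation in this window and in 23.3% of all windows. Among the other members it stood in windows of Sag, Mybpc2, Cela1 and Zap70, and is left in lower case in those shown.

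Tyrobp, also known as DAP12, is the other ITAM adaptor among the members, serving receptors of macrophages and natural killer cells, and lies at chr7:30413782-30417582. The probe set 1450792_at read 16.7 and 15.2 in the knockdown, against 31.3 and 32.4 in the control. The groups did not overlap, but the signal lay close to the filter's value in the knockdown. The log2 difference was -0.58, and -0.96 and -0.26 with pseudocounts of 1 and 64.

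Lyz2 encodes the lysozyme of macrophages and neutrophils, which cleaves bacterial cell walls, and lies at chr10:117277541-117282272. At 1423547_at the signal was 10.3 and 13.8 in the knockdown, against 24.5 and 29.4 in the control. Here too both groups were dim and did not overlap, and the log2 difference was -0.62. The probe set passed the filter only through the control arrays. Its near-identical neighbour Lyz1, the lysozyme of intestinal Paneth cells, read 20.0 and 26.3 in the knockdown, against 50.1 and 47.1 in the control at its brightest probe set. Lyz1 fell by 0.73 ± 0.21 (limma adjusted p = 0.00857), a call that was lost without knockdown replicate 1 (adjusted p = 0.0619). Its probe sets 1436996_x_at and 1439426_x_at carry the suffix for probes that may bind other transcripts, so the signals of the 2 lysozyme genes may be shared and are uncertain for each.

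Zap70 encodes the kinase that binds phosphorylated ITAMs of the T cell receptor, and lies at chr1:36761798-36782821. Its 3 probe sets disagreed. At 1439749_at the signal was 45.7 and 87.2 in the knockdown, against 10.7 and 12.9 in the control, a log2 difference of 1.52. At 1440178_x_at it was 4.2 and 1.1 in the knockdown, against 11.6 and 16.5 in the control, a difference of -0.69. At 1422701_at it was 1.6 and 16.2 in the knockdown, against 2.7 and 1.7 in the control, and the groups overlapped. The last 2 probe sets lay below the filter, and 1440178_x_at carries the suffix for probes that may bind other transcripts. The first, 1439749_at, passed the filter only through the knockdown arrays, which differed from each other by 41.5. Without knockdown replicate 2 its difference was 1.15 and without knockdown replicate 1 it was 1.89. At 1422701_at the difference of 0.39 turned to -0.05 without knockdown replicate 2.

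Around the adaptors, a list of ITAM signalling genes held 24 with a probe set, of which 10 passed the filter. Of these 6 fell, none rose and 4 did not pass, with a median of -0.35. Over all tested genes 35.2% were called lower, and 12 of the 27 listed genes also stand in another list. Lat, the membrane scaffold that Zap70 phosphorylates, fell by 1.13 ± 0.15 (limma adjusted p = 1.02e-05), reading 103.2 and 98.3 in the knockdown, against 289.1 and 196.8 in the control. Lat2, its relative in B cells and mast cells, fell by 0.88 ± 0.13 (limma adjusted p = 3.38e-05) at the brightest of 3 tested probe sets, while the other 2 were at 0.13 and -0.41 and did not pass. The mean over the probe sets of Lat2 was -0.39 (limma adjusted p = 0.0710). The Src-family kinase Fyn, which is also expressed in neurons, fell by 0.34 ± 0.09 (limma adjusted p = 0.00349), and at both of its tested probe sets, though not with quantile scaling (-0.16, adjusted p = 0.111). The ubiquitin ligase Cbl was at -0.32 ± 0.10 at its brightest probe set (limma adjusted p = 0.0171) and at 0.26 and 0.77 at the others, of which the second passed as higher in the fit of all probe sets (limma adjusted p = 0.0152). The call at the brightest probe set of Cbl was lost with quantile scaling (-0.15, adjusted p = 0.228) and centring on the tested probe sets (-0.19, adjusted p = 0.117), and without knockdown replicate 2 (adjusted p = 0.0969) or control replicate 1 (adjusted p = 0.0927). In that fit 25.8% of the tested probe sets were called lower and 9.76% higher. The kinase Syk, Zap70's relative, read 1.1 and 1.9 in the knockdown, against 15.1 and 11.6 in the control at the brightest of its 4 probe sets. All 4 were below the filter, and the mean signal was higher in the knockdown at 2 of them (3.95 against 3.35, and 4.25 against 2.25). The IgE receptor chains Fcer1a and Ms4a2, with which Fcer1g pairs, read at most 9.7 and 11.6 on any array, and the receptor Trem2, a partner of Tyrobp, at most 22.6. Hcst, the neighbouring adaptor gene of Tyrobp, read at most 21.2.

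Other immune markers were few and mostly dim. In the myeloid and mast cell list, 33 genes had a probe set, 12 passed the filter, 4 fell, none rose and 8 did not pass, with a median of -0.27. The lower share of 33.3% was near the 35.2% of all tested genes. Cd68, a lysosomal membrane protein of macrophages, was the only one of them with a mean signal over 100, and fell by 0.94 ± 0.09 (limma adjusted p = 4.21e-07), reading 338.1 and 341.5 in the knockdown, against 619.0 and 720.7 in the control. The protease Ctss fell by 0.76 ± 0.17 (limma adjusted p = 0.00125). The endotoxin co-receptor Cd14 was at -0.02 ± 0.16 (limma adjusted p = 0.916). In the lymphocyte list 7 of 25 measured genes passed the filter, and 2 fell, 1 rose and 4 did not pass, with a median of -0.28. These shares of 28.6% lower and 14.3% higher stood beside 35.2% and 9.84% of all tested genes. Besides Lat, the phosphatase Ptpn22 fell by 0.98 ± 0.13 (limma adjusted p = 8.19e-06). The summed signals were 916 and 921 in the knockdown, against 1353 and 1460 in the control for the myeloid list, and 439 and 487 in the knockdown, against 790 and 664 in the control for the lymphocyte list. Bright genes carried most of the fall in these sums, Cd68 in the myeloid list and Lat and Ptpn22 in the lymphocyte list. Ptprc, the pan-leukocyte marker CD45, singled out after its value was seen, read 0.4 and 0.6 in the knockdown, against 8.1 and 0.3 in the control.

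Cela1 encodes a chymotrypsin-like elastase of the exocrine pancreas and lies at chr15:100674422-100687920. It had the highest signal of the 14 probe sets, as 97.1% of all probe sets were dimmer, although brightness also depends on the probes. At 1423693_at it read 1328.5 and 1254.5 in the knockdown, against 2111.9 and 2149.3 in the control. The arrays of a group agreed within 74.0, and the groups lay far apart by comparison. The means were 1292 ± 52.3 in the knockdown, against 2131 ± 26.4 in the control (SD, n = 2), with a log2 difference of -0.72 that hardly moved with the pseudocount (-0.72 with 1 and -0.70 with 64). Its upstream window at chr15:100687921-100688170 on the minus strand is shown because it is the member with the brightest signal. Capitals mark 5 E-boxes and a TATAAA box.
Cela1: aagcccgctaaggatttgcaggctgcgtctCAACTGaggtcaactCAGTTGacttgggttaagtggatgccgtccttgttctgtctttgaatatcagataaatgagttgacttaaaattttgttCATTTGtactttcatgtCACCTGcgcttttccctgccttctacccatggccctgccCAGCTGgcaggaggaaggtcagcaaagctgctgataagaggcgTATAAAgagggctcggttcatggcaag
The TATAAA began 27 bases before the start, and 12.4% of all windows held that motif on either strand.

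Of the other acinar genes 25 had a probe set, 9 passed the filter, 5 fell, none rose and 4 did not pass. Their median of -0.72 was the lowest of the 6 tissue lists on the deposited scale, and the lower share was 55.6%, against 35.2% of all tested genes. Ctrl, a chymotrypsin-like protease, fell by 1.17 ± 0.10 (limma adjusted p = 9.1e-08), reading 280.9 and 246.9 in the knockdown, against 652.8 and 575.6 in the control. Cuzd1, a membrane protein of zymogen granules, fell by 0.76 ± 0.10 (limma adjusted p = 6.22e-06). The chymotrypsinogen Ctrb1 read 11.2 and 2.1 in the knockdown, against 36.2 and 24.3 in the control. This dim probe set passed the filter only through the control arrays. Ctrb1 was called lower, by 1.05 ± 0.29 (limma adjusted p = 0.00636). That call was lost without knockdown replicate 2 (adjusted p = 0.0601) or control replicate 1 (adjusted p = 0.0671). The acinar regulator Ptf1a and the carboxypeptidase Cpa1, singled out after their values were seen, stayed below the filter, at no more than 21.0 and 12.4 on any array. Bhlha15, another acinar regulator of the list that was likewise singled out, fell by 0.73 ± 0.11 at the brighter of 2 tested probe sets (limma adjusted p = 3.19e-05), reading 166.4 and 188.4 in the knockdown, against 299.4 and 308.0 in the control. The other probe set of Bhlha15 was at 0.28 without passing. The summed signal of the list was 1038 and 1062 in the knockdown, against 1950 and 1891 in the control, and the part of acinar-type cells was not tested.

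Apoa1 encodes the main protein of high-density lipoprotein and lies at chr9:46228630-46230469. All 4 of its probe sets were lower in the knockdown with no overlap between the groups. The brightest, 1438840_x_at, read 54.6 and 48.3 in the knockdown, against 146.8 and 104.6 in the control, a log2 difference of -1.06. At 1419232_a_at the signal was 53.1 and 40.1 in the knockdown, against 82.7 and 75.6 in the control, a difference of -0.61. At 1455201_x_at it was 51.8 and 27.5 in the knockdown, against 73.1 and 89.9 in the control, a difference of -0.84. At 1419233_x_at it was 41.3 and 20.8 in the knockdown, against 78.2 and 93.9 in the control, a difference of -1.15. Probe sets of 1 gene can share probes, so the 4 are not independent measurements. Those ending in _x_at, the brightest among them, carry the suffix for probes that may also bind other transcripts. None of the 10 windows held GTTAAT, a half-site of the liver factor HNF1, which 6.43% of all windows held. The difference at 1455201_x_at was -0.52 without knockdown replicate 2 and -1.16 without knockdown replicate 1.

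In the liver list 10 of 39 measured genes passed the filter, the smallest share of the 6 tissue lists. Of these 2 fell, none rose and 8 did not pass, with a median of -0.25. The lower share of 20% was under the 35.2% of all tested genes. Serpinc1, the antithrombin gene, fell by 1.37 ± 0.15 (limma adjusted p = 1.48e-06), reading 58.1 and 45.9 in the knockdown, against 149.8 and 169.1 in the control. Hpx, the heme-binding hemopexin, fell by 1.29 ± 0.11 (limma adjusted p = 1.1e-07). Rbp4, the carrier of retinol, was at -0.27 ± 0.11 (limma adjusted p = 0.0644). The plasma protein albumin, Alb, singled out after its value was seen, read 21.6 and 9.6 in the knockdown, against 25.2 and 24.9 in the control. The summed signal of the list was 750 and 760 in the knockdown, against 1245 and 1212 in the control, and the part of liver-type cells was not tested.

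**Figure D2:**
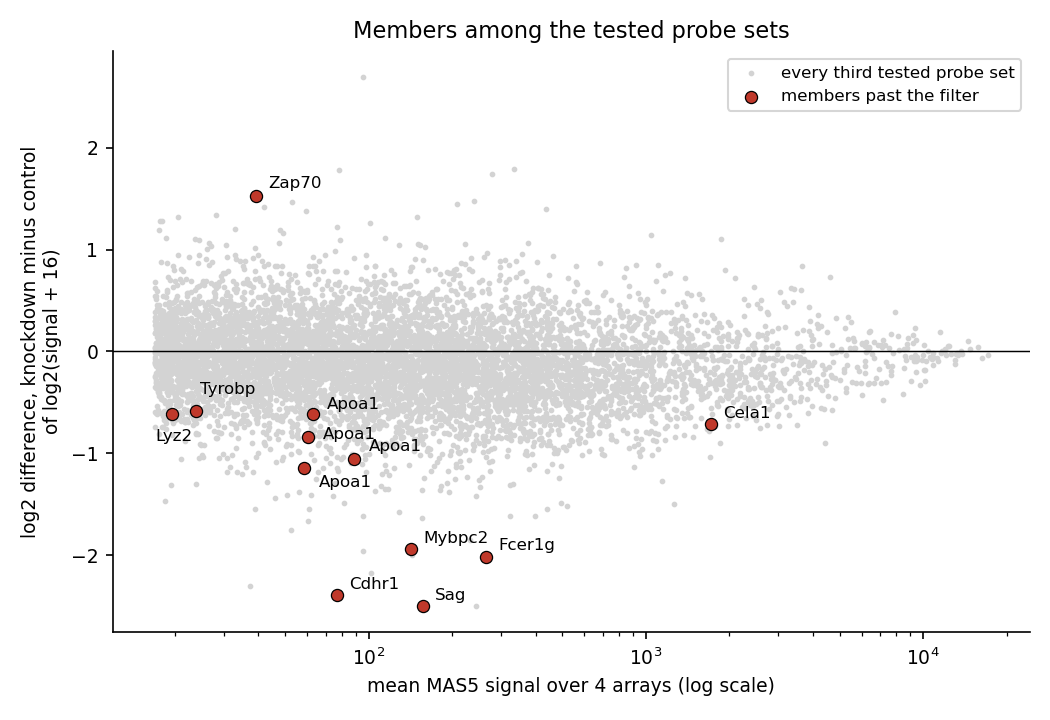
Log2 difference (knockdown minus control) against mean MAS5 signal over the 4 arrays (log scale), with members past the filter in red and an even sample of the tested probe sets in grey. Sag, Cdhr1, Fcer1g and Mybpc2 lie between -2.50 and -1.94, and Zap70 1439749_at lies at 1.52.

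Across the 9 genes, 12 of 14 probe sets were lower in the knockdown without overlap, 1 was higher without overlap and 1 overlapped. Of all 45037 probe sets 31.3% were lower and 19.5% higher without overlap, and of the tested probe sets 44.3% and 22.6%. Nothing is read from the members' count, since the members were picked for this contrast. Their log2 differences fell into a group of 4 probe sets from -2.50 to -1.94 (Sag, Cdhr1, Fcer1g and Mybpc2) and, apart from Zap70, a group from -1.15 to -0.58. Of the tested genes 2.39% were called lower by at least 2-fold and 0.347% were called higher by at least 2-fold. Over the scalings tried, Sag ranged from -2.61 to -2.37, Fcer1g from -2.13 to -1.87, Cela1 from -0.83 to -0.55 and Zap70 1439749_at from 1.41 to 1.65.

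**Figure D3:**
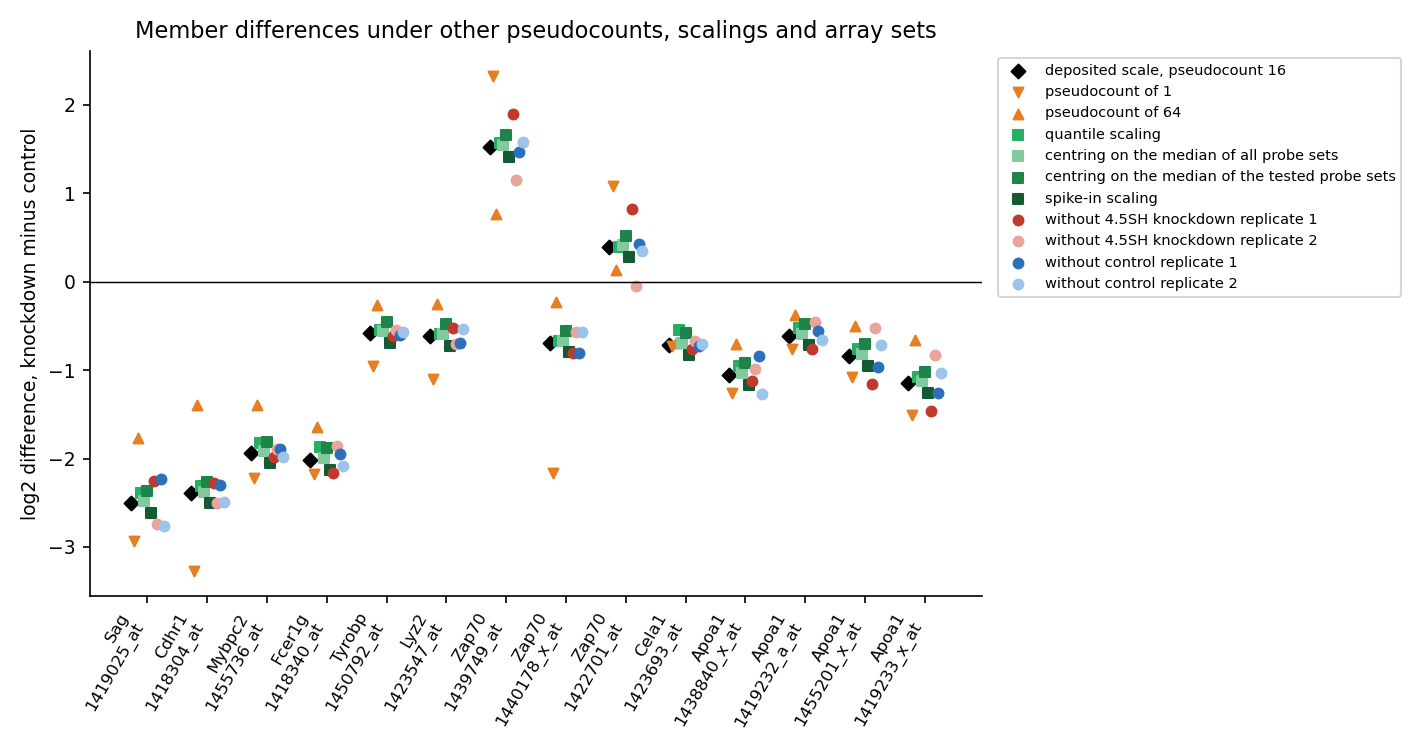
Log2 difference (knockdown minus control) of each of the 14 probe sets under other pseudocounts (triangles), scalings (squares) and with 1 array left out (circles), beside the value on the deposited scale (black diamonds). The pseudocount moved Cdhr1, dim in the knockdown, from -3.27 to -1.39, and Cela1, the brightest, from -0.72 to -0.70. Only Zap70 1422701_at changed sign, without knockdown replicate 2.

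The 6 tissue lists together named 218 genes other than the members, of which 192 had a probe set. Only 68 of these, 35.4%, passed the filter, against 64.9% of all 18193 genes with a probe set. A mean signal over 100 was reached by 22 of the 192, or 11.5%, against 42.7% of all genes. Of the 68 tested, 26 fell, 4 rose and 38 did not pass. Mybph and Cd8a, called higher, and Ctrb1, Tnnc2 and Gnat1, called lower, passed the filter only through the group where they were brighter. For these genes the direction was tied to being tested. The shares of 38.2% lower and 5.88% higher stood beside 35.2% and 9.84% of all tested genes. The median log2 difference was -0.32, against -0.17 for all tested genes, and with quantile scaling -0.28 against -0.04. The summed signal in the knockdown was 64.9% of that in the control for the union of the lists, and 89.2% for all genes. A few bright genes weigh most in the sums of the lists, which need not reflect their other genes. The fibroblast list, as another cell type, had 3 of 11 measured genes past the filter and limma called none of them, nor did any have an unadjusted p below 0.05, and its sum was 93.3% of the control's. The platelet-derived growth factor receptor gene Pdgfrb was at -0.13 ± 0.12 (limma adjusted p = 0.419), or at -0.37 as the mean over its probe sets (limma adjusted p = 0.0288), and the matrix proteoglycan gene Dcn at 0.23 ± 0.20 (limma adjusted p = 0.389). In the myeloid, ITAM, acinar and liver lists, where no gene was called higher, none was higher at an unadjusted p below 0.05 either. Without knockdown replicate 1 the median of the tissue list genes was -0.32, against -0.15 for all tested genes. Without knockdown replicate 2 it was -0.35, against -0.19.

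The summed signal of the neural list in the knockdown was 96.1% of that in the control, and of 19 tested genes 6 fell, 2 rose and 11 did not pass, with a median of -0.10. The shares of 31.6% lower and 10.5% higher were near the 35.2% and 9.84% of all tested genes. This split turned to 2 lower and 6 higher with quantile scaling. Elavl4, a neuronal RNA-binding protein, rose by 1.28 ± 0.20 (limma adjusted p = 6.13e-05) with all 3 tested probe sets higher. The adhesion molecule Ncam1 fell by 0.55 ± 0.09 at its brightest probe set (limma adjusted p = 0.000105). Averaged over the 4 tested probe sets of Ncam1, the difference was 0.12. Whether the tissue lists differed from the neural list was not tested.

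**Figure D4:**
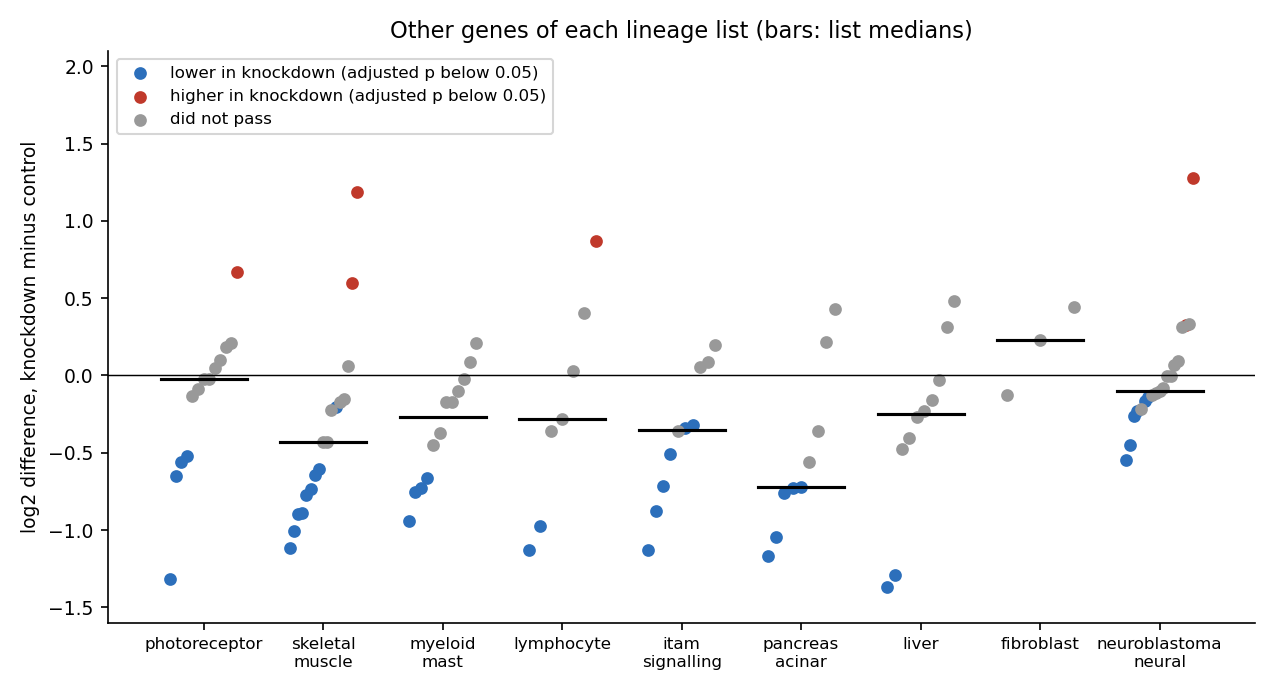
Log2 difference (knockdown minus control) of each tested gene in the lineage lists, members left out, with list medians as black bars and genes past the limma threshold coloured. Most called genes of the 6 tissue lists lie below 0 (26 lower, 4 higher), and the acinar list has the lowest median, -0.72.

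The genes next to the members on the chromosome were not used in the choice, although the probe sets of Lyz1 may also bind Lyz2 transcripts. For each member the nearest measured protein-coding gene on each side was taken, which need not be the adjacent gene. This gave 18 genes, of which 12 passed the filter. Of these 6 fell, 1 rose and 5 did not pass, with a median of -0.32, beside 35.2% lower, 9.84% higher and a median of -0.17 over all tested genes. Lyz1, whose signal may be shared with Lyz2, is among the 6. Both neighbours of Sag fell. Dgkd, a diacylglycerol kinase 8105 bases away, fell by 0.97 ± 0.10 (limma adjusted p = 8.16e-07) at the brightest of 3 tested probe sets, the others being at -0.32 and -0.25 without passing. Atg16l1, an autophagy protein 5714 bases away, fell by 0.48 ± 0.09 (limma adjusted p = 0.000496). Beside Cdhr1, 2610528A11Rik fell by 0.65 ± 0.09 (limma adjusted p = 1.23e-05), with signals of 353.8 and 340.6 in the knockdown, against 574.3 and 535.5 in the control, and on the other side Lrit2 read at most 5.6. Beside Mybpc2, the B cell factor Spib fell by 0.80 ± 0.11 (limma adjusted p = 2.11e-05), while Fam71e1, which overlaps the gene, was at -0.01 ± 0.19 (limma adjusted p = 0.984).

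Both neighbours of Fcer1g lay above 0. The extracellular protease Adamts4, 15779 bases away, was at 0.41 ± 0.16 (limma adjusted p = 0.0462). The apolipoprotein Apoa2, 3192 bases away, was at 0.48 ± 0.23 (limma adjusted p = 0.0994). The call for Adamts4 was lost in 7 of the alternatives, and its difference ranged from 0.23 to 0.58 with 1 array left out. The kinase Sik3 beside Apoa1 fell by 0.67 ± 0.08 (limma adjusted p = 4.79e-06) at the brightest of 3 tested probe sets, the others being at -0.30 and -0.14 without passing, and the apolipoprotein Apoc3 on its other side was below the filter. Tmem131, 9367 bases from Zap70, was at 0.02 ± 0.10 (limma adjusted p = 0.853). Smagp, 37481 bases from Cela1, was at -0.04 ± 0.13 (limma adjusted p = 0.822). Lrfn3, 51009 bases from Tyrobp, was at -0.15 ± 0.21 (limma adjusted p = 0.586). Among sequence relatives, the ubiquitous beta-arrestins of Sag were at 0.05 ± 0.16 for Arrb1 (limma adjusted p = 0.813) and -0.29 ± 0.09 for Arrb2 (limma adjusted p = 0.0186). The call for Arrb2 was lost with quantile scaling (-0.10, adjusted p = 0.340), without knockdown replicate 2 (adjusted p = 0.106) and without control replicate 1 (adjusted p = 0.148). The cone arrestin Arr3, the cadherin Cdhr2, the acinar elastase Cela2a and the apolipoprotein Apoa4 were below the filter.

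**Figure D5:**
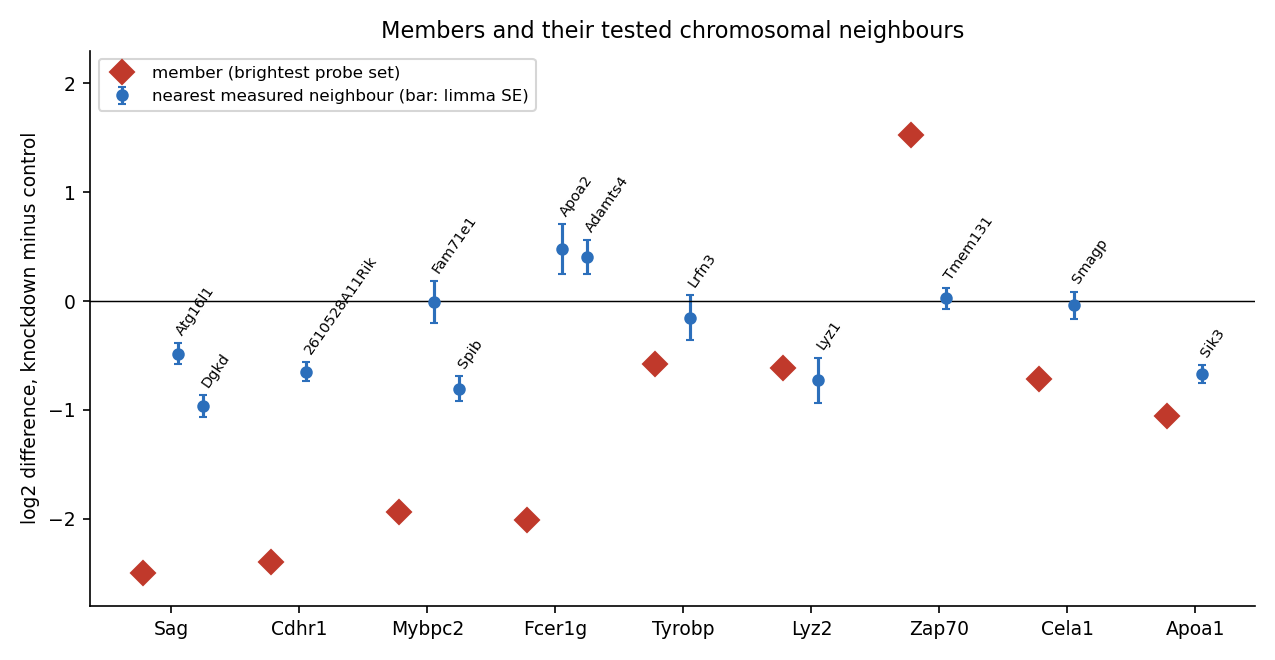
Log2 difference (knockdown minus control) of each member's brightest probe set (red diamonds) and of its nearest measured neighbours past the filter (blue circles, bars are limma SE). Both neighbours of Sag lie below 0, at -0.48 and -0.97, and both tested neighbours of Fcer1g lie above 0, at 0.48 and 0.41.

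By the distance between centred log2 profiles over the 4 arrays, the gene most like Sag was Cdhr1 (0.323), and Hspb11, a protein of intraflagellar transport, came second (0.531). Hspb11 was also the nearest to Cdhr1 (0.234). Mybpc2 lay nearest to 5530601H04Rik (0.0891) and Ctnna2, a neuronal catenin (0.0958), and Fcer1g to Mybpc2 (0.174) and the zinc finger gene Zfp346 (0.181). Zap70 lay nearest to Marchf8, a membrane ubiquitin ligase (0.228), and Ccdc14 (0.387). Cela1 lay nearest to Ubap1 (0.0261) and Ssu72 (0.0267), Apoa1 to Fbxl17 (0.0897) and BC055324 (0.0901), Tyrobp to Asb3 (0.00743) and Ptp4a3 (0.0254), and Lyz2 to Smpd2 (0.0288) and Dgat1 (0.0292). With 4 arrays in 2 groups such a distance mostly reflects the size of the difference between the groups.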

How the data were processed

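Cytoplasmic RNA of Neuro2A cells was hybridised to 4 one-colour arrays, 2 per group. The authors deposited intensities made with MAS5, per the submitters' processing notes, 1 for each probe set. The labels name no software version, scaling target or filter. Of 45037 probe sets without controls, 34945 carried 1 gene symbol, 932 several and 9160 none, and 34741 probe sets with 1 symbol were matched by Entrez identifier.

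Signals entered as log2(signal + 16), unscaled. Probe sets with a mean signal at or above the median (16.9) were tested, 22525 in all, with the brightest standing for each of 11814 genes. The test was limma 3.58.1 under R 4.3.3, with lmFit and eBayes on an intensity trend. It was two-sided, had 16.7 degrees of freedom in total, most of them borrowed from other genes, and used Benjamini-Hochberg adjustment. A check on simulated data changed few genes and put no shift between arrays, so it does not cover the effect of the scaling. An exact permutation test of 2 against 2 arrays cannot give a p below 0.333.

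The members and lists were chosen with earlier results of these data known. Named were all probe sets of the 9 genes, of each list the 2 brightest tested genes and up to 2 called genes with the largest difference, neighbours, relatives and the 2 likest genes per member. Alternatives were pseudocounts of 1 and 64, other scalings, filters and probe set choices, no trend, a replicate block and leaving out each array, where the lone array of a group is assumed to vary like the other group's. Promoter sequences are from RefSeq (GRCm38.p6).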

Additional observations from a re-analysis of the deposited data

How the results depend on the processing

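The number of tissue list genes called higher, 4 on the deposited scale, was 1 with no filter on dim probe sets, 0 on the brightest 25% of probe sets and 2 with no intensity trend. It was 5 with quantile scaling, 6 with centring on the tested probe sets and 3 with spike-in scaling. The number called lower, 26, was 15 of 19 tested on the brightest 25%, where fewer genes were tested. There 48.2% of all genes were called lower and 12.6% higher. With no filter 22 of 192 tissue list genes, or 11.5%, were called lower, under the 18.6% of all genes. The 0.521% called higher was likewise under the 4.6% of all genes. In the other settings with all arrays the number called lower lay between 22 and 31. It was 22 to 24 with 3 of the 4 scalings and 31 with spike-in scaling. With 1 array left out the median of the tissue list genes ranged from -0.37 to -0.29, and that of all tested genes from -0.19 to -0.14. Over all genes tested, 4163 were called lower and 1162 higher, against 3239 and 832 with no intensity trend, 2676 and 2096 with quantile scaling, 2890 and 2006 with centring on the tested probe sets, 5291 and 672 with spike-in scaling, and 3519 and 699 without knockdown replicate 2. Of the tested genes 22.7% were lower and 17.7% higher with quantile scaling, 44.8% and 5.69% with spike-in scaling. A replicate block left the tissue counts at 26 lower and 4 higher, and same-numbered arrays did not deviate together (correlation of 0.00715). The fits with the block and without either control array had 11814 degrees of freedom in total, against 16.7 in the main fit. They took each gene's variance from the trend over all genes, so their p-values and counts are not comparable with the main ones. Among neighbours and relatives 8 genes were called, and 6 to 8 in every alternative. The count of member probe sets lower in the knockdown stayed at 12 with every scaling, pseudocount and the block, and was 13 without knockdown replicate 2. Of 41 named list, neighbour and relative genes, 10 lost their call in at least 1 setting, 4 gained one and 2 reversed, Cbl at 0.24 and Ncam1 at 0.12 with the mean of all tested probe sets of a gene. The causes were not tested. Of 154 values of the 14 member probe sets under alternatives, 29 moved by over 1 SD between replicates, 9 of them with a pseudocount of 1 and 11 with one of 64, and 1 changed sign. Values under the filter's signal of 16.9 rest on brightness that was not compared with background.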
